A study of Mus musculus with 2 samples.

Results

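Long noncoding RNA genes that still carry only a clone-derived symbol were examined in mouse MEP. These megakaryocyte-erythroid progenitors are the cells of the bone marrow that give rise to red cells and to megakaryocytes, the source of platelets. Members were genes that GENCODE M21 lists as lincRNA, antisense, processed_transcript or bidirectional_promoter_lncRNA, whose symbol is Gm plus digits or ends in Rik, without Gm42418 and Gm26917. They were selected on measured level: at least 5 TPM (the share of a gene among all transcripts after correction for length) and at least 50 expected counts in both libraries. Of 5005 genes with those biotypes and symbols, 46 passed, among 43346 annotated genes in the tables. The levels below are therefore a description, without a test.

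The series held 1 group of 2 libraries. Both were made from 100 MEP primary cells of male C57BL/6J mice of 5 to 6 weeks, from RNA above 200 bases with spike-ins, with no treatment or genetic change in the labels. The labels give replicates 1 and 2 separate biosamples and the same donor record, so the spread between them may be technical. Replicate 1 held 30016974 expected counts and replicate 2 held 51510347. Erythroid markers passed the same thresholds for 32 of 37 measured genes and shared erythroid and megakaryocyte transcription factors for 11 of 11, against 1 of 14 megakaryocyte genes. Granulocyte-monocyte markers passed for 1 of 14 and summed to 1890 TPM in replicate 1 and 7.57 in replicate 2. B cell markers passed for 0 of 11 and summed to 10.9 TPM in replicate 1 and 162 in replicate 2. T and NK cell markers passed for 2 of 10 (Lck and Nkg7) and summed to 53.1 TPM in replicate 1 and 38.1 in replicate 2, and stromal and endothelial markers for 0 of 9. The part of these other cell types in the differences between libraries given below was not tested. In pooled cells, fewer cells of a type and less RNA per cell cannot be told apart.

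Long noncoding RNAs are transcribed and usually spliced and capped like messenger RNAs but are not annotated as encoding a protein. Some act on a neighbouring gene while being transcribed, some act as RNA in the nucleus or cytoplasm, some only carry small nucleolar RNAs (snoRNAs, guides for chemical modification of ribosomal RNA) in their introns, and many have no known function. Many start beside a protein-coding gene and share its promoter region. For this reason each member is set beside its nearest protein-coding gene.

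The thresholds left a small share of the class. The 46 members were 0.919% of the 5005 genes, whereas 41 of 517 lncRNA genes with other symbols passed (7.93%), as did 7148 of 21461 protein-coding nuclear genes (33.3%). Passing was most frequent among genes annotated as bidirectional_promoter_lncRNA (3 of 84, 3.57%) and processed_transcript (17 of 527, 3.23%), and less so among lincRNA (16 of 2642, 0.606%) and antisense genes (10 of 1752, 0.571%). In 4093 class genes both libraries held 0 counts. Just inside the thresholds were 9330151L19Rik with 5.02 TPM in replicate 1 and 8.78 in replicate 2, Gm20427 with 5.06 and 11.9 TPM, and Gm26853 with 9.50 and 5.21 TPM. Just outside were 5031425E22Rik with 4.88 and 7.20 TPM, Gm12454 with 8.08 and 4.88 TPM, and 6720427I07Rik with 4.88 and 4.78 TPM.

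Most members were present at low levels, and a few held most of the signal. Taking the mean of both libraries, the median member stood at 11.9 TPM, with 10.7 in replicate 1 and 12.6 in replicate 2. The median was 19.8 TPM for protein-coding nuclear genes past the same thresholds, and lncRNA genes with other symbols 25.7 TPM. By mean TPM, 15 members lay between 5 and 10, 15 between 10 and 20, 11 between 20 and 100, and 5 at 100 or more. Together the members summed to 1880 TPM in replicate 1 and 2230 in replicate 2, of which the 5 highest held 70.0% and 64.9%. These sums include a histone transcript counted within Gm42743, described further on. Without it the members summed to 1270 and 1750 TPM, and the 5 then highest held 56.4% and 59.5%. For scale, Malat1, a nuclear-speckle lncRNA, averaged 1460 ± 147 TPM, and Gas5, a snoRNA host, 1390 ± 459 TPM (SD, n = 2 each).

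**Figure D1:**
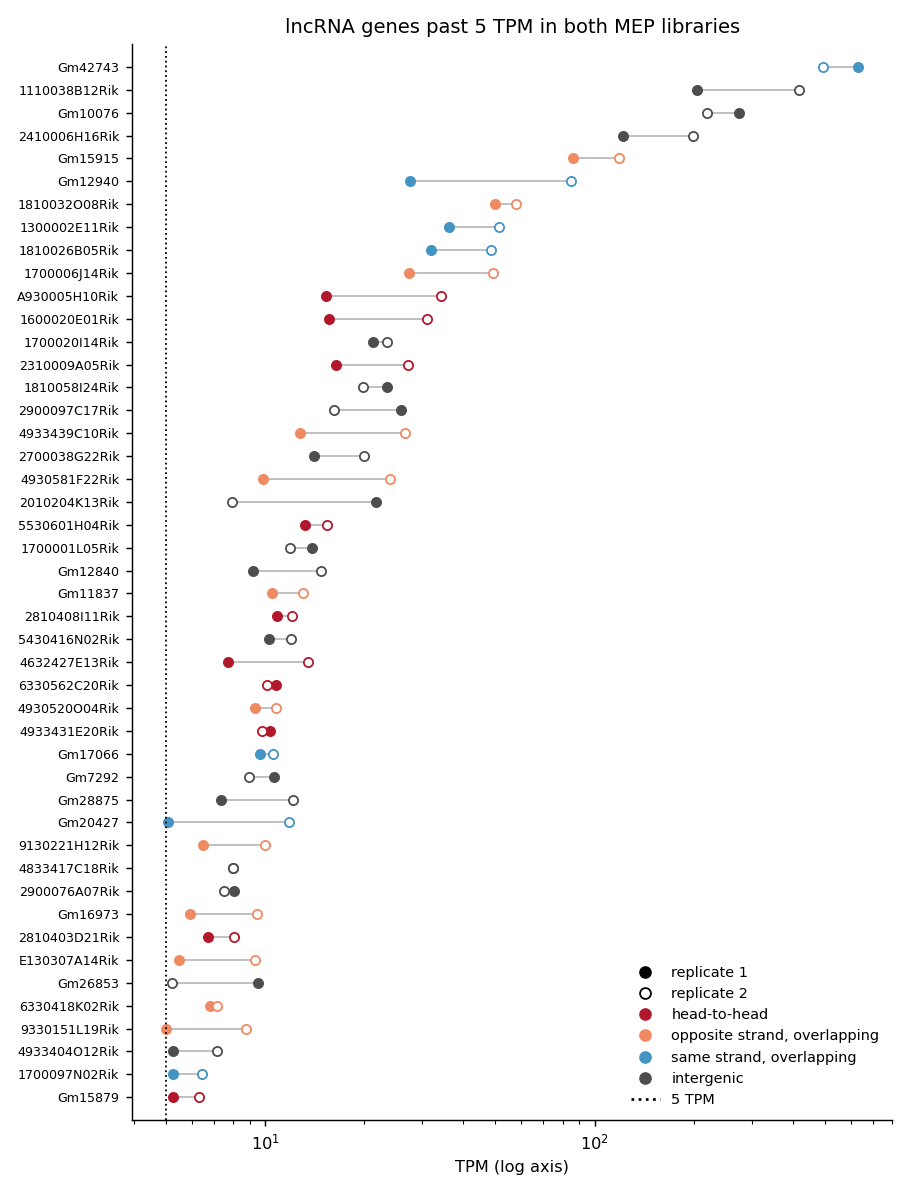
TPM of the 46 members on a log axis, with filled points for replicate 1 and open points for replicate 2, a grey line joining them, and colour for the position relative to the nearest protein-coding gene. The 5 genes at the top sit at 85.9 TPM or more in both libraries, and most of the others lie between the dotted line at 5 TPM and 30 TPM.

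Several of these genes are no longer uncharacterised, and some are not plainly noncoding. RefSeq matched 37 of the 46: it lists 32 as lncRNA, 4 as protein_coding (Gm12940, 2310009A05Rik, 1810058I24Rik and Gm11837) and 1 as a pseudogene (Gm10076), and it gives 6 of them another symbol. Among those, 1700020I14Rik is Oip5os1, also called Cyrano, 2900097C17Rik is Norad, 1810026B05Rik is Chaserr, 1810032O08Rik is Snhg16 and 2310009A05Rik is Pigbos1, which encodes a microprotein of the outer mitochondrial membrane. RefSeq lists Gm12940 under Sfpq, the gene of a splicing factor. The remaining 9 members had no RefSeq entry.

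The highest member by TPM consisted mostly of a histone transcript. Gm42743 (ENSMUSG00000050936.4, mm10 chromosome 3, 96269721 to 96279001, plus strand, lincRNA) stood at 630.2 TPM in replicate 1 and 492 in replicate 2, a mean of 561 ± 97.4 TPM (SD, n = 2). In the authors' tables, which used GENCODE M4, the gene includes the transcript Hist2h2bb-201, which M21 assigns to Hist2h2bb, a replication-dependent histone H2B gene. That transcript held 97.59% of the gene's TPM in replicate 1 and 97.48% in replicate 2. The lincRNA's own transcript, Gm42743-201, stood at 15.2 TPM in replicate 1 and 12.4 in replicate 2. Hist2h2bb-201 was the only one of 175 member transcripts that M21 assigns to another gene.

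Gm10076 (mm10 chromosome 14, 105681828 to 105682211, plus strand, lincRNA in GENCODE, a single exon of 384 bases) stood at 275 TPM in replicate 1 and 219 in replicate 2. RefSeq lists it as a pseudogene. It matches the messenger RNA of Rpl41, a ribosomal protein of the large subunit, over 383 bases with 2 substitutions and no gap, an identity of 99.5%. Counting from 1 at the 5′ end of Rpl41-201, the substitutions are C317T and G424A, with the Rpl41 base first. Rpl41-201 has 582 bases, so reads from outside the matched stretch can also be told apart. The stretches of Rpl41 around the substitutions, from GENCODE M21 transcripts, are shown because within the match only these bases differ. The differing base is in capitals.
Rpl41 around position 317: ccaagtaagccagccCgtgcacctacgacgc
Rpl41 around position 424: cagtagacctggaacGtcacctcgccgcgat
Rpl41 stood at 3150 TPM in replicate 1 and 3393 in replicate 2, so Gm10076 held 8.03% and 6.06% of their sum. The authors' posterior standard deviation of the count was 16.4 in replicate 1 and 17.5 in replicate 2 for Gm10076, beside 16.4 and 17.5 for Rpl41. The level of Gm10076 is therefore uncertain beyond its counting error.

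The next group of members hold small RNA genes inside their gene bodies, on the same strand. Whether each lies in an intron was not examined. 1110038B12Rik (mm10 chromosome 17, 34950238 to 34952471, minus strand), which holds Snord52 and Gm25744, stood at 205 TPM in replicate 1 and 419 in replicate 2. 2410006H16Rik (chromosome 11, 62602877 to 62604807, plus strand), which holds Snord49a, Snord49b and Snord65, stood at 122 TPM in replicate 1 and 199 in replicate 2. 1810032O08Rik, the gene of Snhg16 (chromosome 11, 116671660 to 116675799, plus strand), with Snord1a, Snord1b and Snord1c, stood at 49.9 TPM in replicate 1 and 57.7 in replicate 2. All of these were among the 12 highest members. 2700038G22Rik, with Snord93, stood lower, at 14.1 TPM in replicate 1 and 20.0 in replicate 2, and 2900076A07Rik, with Mir1839, which is annotated both as a scaRNA and as a microRNA precursor, at 8.06 TPM in replicate 1 and 7.53 in replicate 2. The 127 bases of that scaRNA matched a spliced transcript of 2900076A07Rik at 100% identity, so it lies in an exon there. Every hosted small RNA in the tables was listed at 0 counts in both libraries. They are 63 to 127 bases long, and the libraries were made from RNA above 200 bases, so these files do not measure them.

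Transcripts of snoRNA hosts often begin in a run of pyrimidines, as do the messenger RNAs of ribosomal proteins. The bases around the start of the 5 hosts, from RefSeq (GRCm38.p6), are shown so that each start can be compared with that trait. Each window runs from 10 bases before the start, with capitals for the longest run of C and T near it.
1110038B12Rik: gcggcacacgggTCTCTTTgtgcacccgcc
2410006H16Rik: cgccgTCTTTCTCTgcggccatcatgggat
1810032O08Rik: gcgcaagcgcgatctcgTCCTTTCCgaggt
2700038G22Rik: ctggcgcccagCTCTTCCgccgcggcgcgc
2900076A07Rik: cggaagtggactcaTTTTCCaccggaagga
The runs were 6 to 9 bases long. Counting the start as base 1, the run covered the start in 2410006H16Rik alone of the 5. In 2700038G22Rik it began at base 2, in 1110038B12Rik at base 3, in 2900076A07Rik at base 5 and in 1810032O08Rik at base 8. Over the windows from 10 bases before to 15 bases after the start, a run of at least 6 bases stood in 9 of 32 member promoters (28.1%), 5 of them in these hosts, and in 25.9% of the 1555 promoters of class genes that did not pass. Over all members, such a run therefore occurred at a share similar to that of the class genes that did not pass. Each of the 5 hosts held one, and no background of other small RNA hosts was taken.

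Some members have a function known from work elsewhere. 1700020I14Rik (mm10 chromosome 2, 119594297 to 119607502, plus strand), the Cyrano RNA, stood at 21.3 TPM in replicate 1 and 23.4 in replicate 2, a spread of 1.53 TPM (SD, n = 2) around 22.4. It is known in mouse for an almost fully paired site for the microRNA miR-7, which leads to decay of that microRNA. The microRNA, with its seed at bases 2 to 8 in capitals, and the stretch at positions 2934 to 2959 of the 8300 bases of 1700020I14Rik-202, with the seed match in capitals, are shown so that the pairing can be read.
miR-7a-5p: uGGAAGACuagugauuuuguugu
1700020I14Rik site: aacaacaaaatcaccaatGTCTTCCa
Of the 23 bases of the microRNA, 22 can pair in an alignment that allows a gap, and the transcript holds 2 seed matches. The microRNA sequence is from RefSeq and the transcript from GENCODE M21.

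2900097C17Rik (mm10 chromosome 2, 156388065 to 156392979, minus strand, single exon), the Norad RNA, stood at 25.9 TPM in replicate 1 and 16.2 in replicate 2. It is known to bind PUMILIO proteins, repressors of messenger RNA, through many copies of the element TGTANATA. The 4915-base transcript held 11 elements on its own strand, at positions from 651 to 3533. Of the 2540 class genes with a transcript of at least 1000 bases, 24.5% held any such element and 1 held at least as many, which is this gene itself. Some are shown for their letters, with the element in capitals and 8 bases on each side.
Element 1: aagtcctgTGTATATAatatgaaa
Element 2: aaacatgcTGTAAATAcctttttg
Element 3: cttttcttTGTACATAgtgtatgt
Element 10: tactactaTGTATATAggggacaa
In the authors' tables the transcript was 1149 bases long, so its TPM was computed for a shorter model than the one searched.

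Another member, Gm7292 (chromosome 6, single exon of 2527 bases), is a near copy of Norad: 2525 bases aligned with 9 substitutions and 4 gaps, an identity of 99.6%. It held 9 of the elements. Gm7292 stood at 10.7 TPM in replicate 1 and 8.92 in replicate 2, which was 29.1% and 35.5% of the summed TPM of both genes. TPM divides by length, and the authors' tables hold a shorter model of Norad than the transcript described above. By expected counts Gm7292 had 560 beside 577 for Norad in replicate 1 (49.3% of both) and 814 beside 614 in replicate 2 (57.0%), so the order of the copies in replicate 2 depends on the measure. The authors' posterior standard deviation of the count was 9.77 in replicate 1 and 9.56 in replicate 2 for each of them. These were at most 1.74% of the counts, but they cover only the transcript models that the authors used. Their Norad model was 1149 bases long, against 4915 in M21. Reads from the rest of Norad could not be counted for it, and whether some were counted for Gm7292 was not tested. How the reads divide between the copies is therefore uncertain in both libraries.

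1810026B05Rik (mm10 chromosome 7, 73539203 to 73558395, minus strand), the Chaserr RNA, lies on the same strand as Chd2, a chromatin remodeller that Chaserr is known to restrain in mouse. It stood at 31.96 TPM in replicate 1 and 48.65 in replicate 2, while Chd2 stood at 11.4 TPM and 7.30 TPM. The lncRNA was above its neighbour in both libraries. Their exons share 2628 bases in M21, and the posterior standard deviation of the count was 13.6 and 18.6, so part of the reads may belong to either gene. 2310009A05Rik (Pigbos1) stood at 16.4 TPM in replicate 1 and 27.1 in replicate 2, and 1810058I24Rik, which RefSeq lists as protein-coding, at 23.4 and 19.8 TPM.

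Members lay close to protein-coding genes more often than the class genes that did not pass. Of the members, 14 (30.4%) started within 1000 bases of the start of the nearest protein-coding gene, on either strand, against 15.3% of the class genes that did not pass. The median distance between starts was 14933 bases for members and 39383 bases for those genes. Head-to-head pairs, on opposite strands with starts within 1000 bases, held 10 members (21.7%), against 14.5%. Same-strand overlap held 7 members (15.2%), against 2.68%. Opposite-strand overlap away from the starts held 12 members (26.1%), against 34.5%, and 17 members lay between genes. Membership depended on level, and reads of an overlapping gene can raise a level, so these shares are a description.

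**Figure D2:**
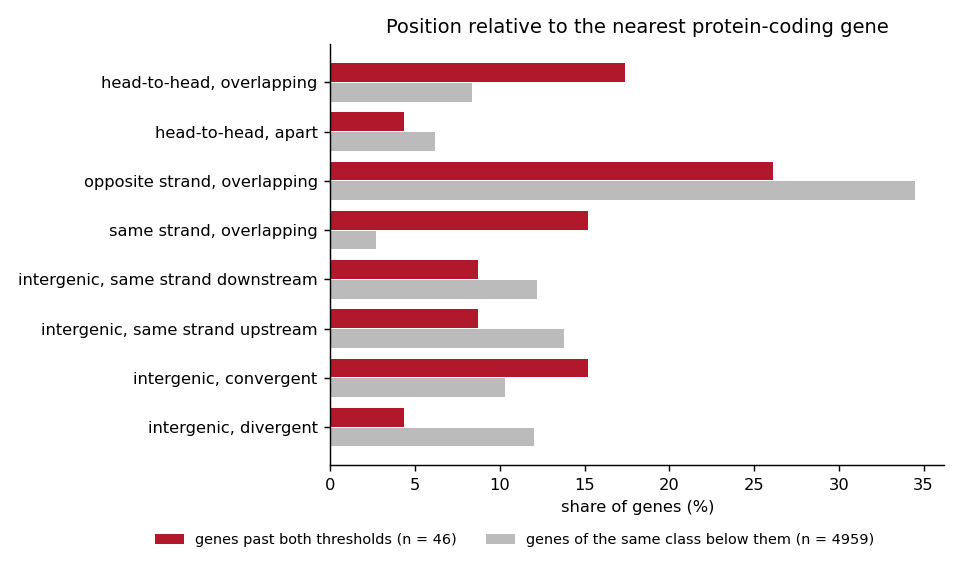
Share of genes, in percent, in each position relative to the nearest protein-coding gene, for the 46 members (red) and for the 4959 class genes that did not pass the thresholds (grey). The red bar is the longer one for overlapping head-to-head pairs (17.4% against 8.35%), same-strand overlap (15.2% against 2.68%) and convergent genes (15.2% against 10.3%).

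The nearest protein-coding gene was itself expressed more often beside a member. Of 45 members whose neighbour was in the tables, 25 (55.6%) had a neighbour past 5 TPM and 50 counts in both libraries, against 1501 of 4922 class genes that did not pass (30.5%). Yet 27 members stood above their neighbour in both libraries, 14 stood below it in both, and 12 had a neighbour under 1 TPM in both. Members had to reach 5 TPM and neighbours did not, so this order depends in part on the rule, here and in the pairs below. Across the 45 pairs, the levels of member and neighbour had a Spearman rho of 0.0831, a description over genes that share both libraries. No member had a nearest gene in the lists of 43 blood transcription factors, 38 erythroid genes or 23 cell cycle genes. These lists are short beside the 21461 protein-coding nuclear genes, and the class genes that did not pass were not counted in the same way. The absence is therefore not a result about the members.

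**Figure D3:**
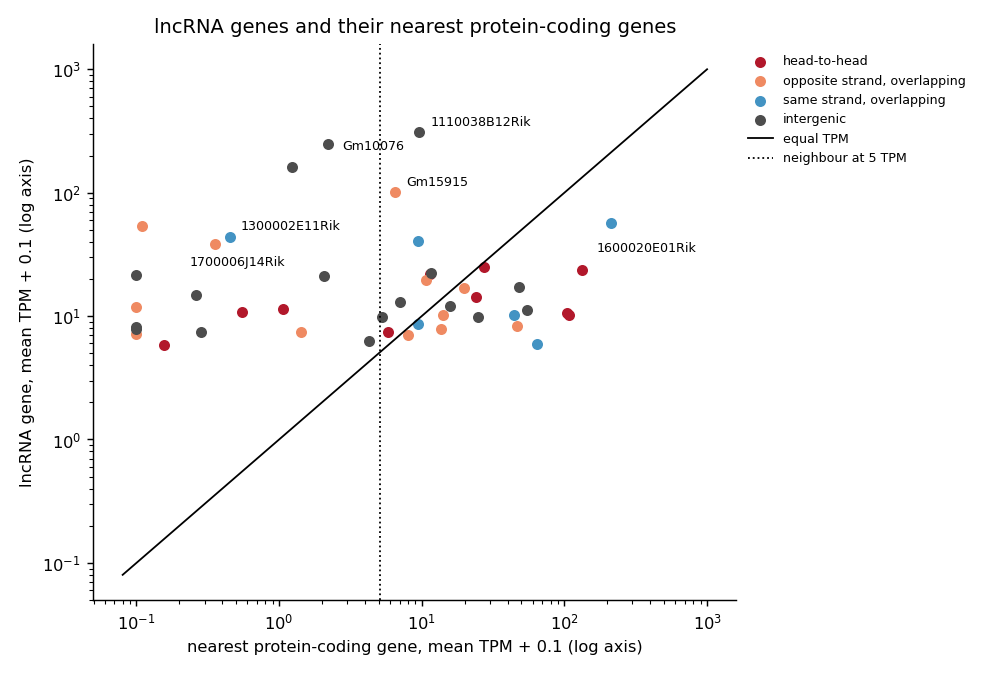
Mean TPM of each member against mean TPM of its nearest protein-coding gene, both with 0.1 added and on log axes, for the 45 pairs with a neighbour in the tables. Points above the line of equal TPM are members higher than their neighbour, and the points left of the dotted line, where the neighbour is under 5 TPM, hold members from 5.78 TPM up to Gm10076 at 247 TPM.

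Among head-to-head members, the neighbour was the higher gene in some pairs and nearly silent in others. 1600020E01Rik stood at 15.6 TPM in replicate 1 and 31.1 in replicate 2, below Pcbp1, an RNA-binding protein gene, at 131 and 136 TPM. 6330562C20Rik, at 10.8 and 10.1 TPM, was below Cers2, a ceramide synthase gene, at 82.6 and 126 TPM, and 4933431E20Rik, at 10.3 and 9.82 TPM, was below Gstm5, a glutathione transferase gene, at 105 and 110 TPM. 5530601H04Rik stood at 13.2 and 15.4 TPM, below Pbdc1 at 19.1 and 28.5 TPM. In A930005H10Rik the order changed between libraries: it stood at 15.4 and 34.2 TPM, and Dph5, an enzyme of diphthamide synthesis, at 26.71 and 28.05 TPM.

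In the other 5 head-to-head pairs the lncRNA was the higher gene in both libraries. 2310009A05Rik was above Pigb, which acts in glycosylphosphatidylinositol anchor synthesis, at 9.37 TPM in replicate 1 and 13.3 in replicate 2. 2810408I11Rik stood at 10.84 and 12.04 TPM, against 1.06 and 0.86 TPM for Ccnyl1. 2810403D21Rik stood at 6.72 and 8.04 TPM, close to Brwd3 at 6.60 and 4.81 TPM. Gm15879 stood at 5.27 and 6.29 TPM, while Dnase1, a secreted nuclease gene, was listed at 0 in replicate 1 and at 0.11 TPM in replicate 2. The transcripts of these pairs share exon bases on opposite strands, except for 5530601H04Rik and 4632427E13Rik, and the strand setting of the authors' counting is not given in the sources used here.

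4632427E13Rik and Rab30, a gene of a Golgi GTPase, diverge from starts 135 bases apart in M21. The lncRNA stood at 7.70 TPM in replicate 1 and 13.5 in replicate 2, and Rab30 at 0.39 and 0.50 TPM. The pair has no overlapping exon, so its order does not depend on how overlapping reads were divided. The window that holds both starts is shown because it is the stretch from which both genes begin (RefSeq, GRCm38.p6, chr7:92741410-92741709, minus strand). Capitals mark the 144 bases between the RefSeq start of the lncRNA and the M21 start of Rab30.
4632427E13Rik promoter: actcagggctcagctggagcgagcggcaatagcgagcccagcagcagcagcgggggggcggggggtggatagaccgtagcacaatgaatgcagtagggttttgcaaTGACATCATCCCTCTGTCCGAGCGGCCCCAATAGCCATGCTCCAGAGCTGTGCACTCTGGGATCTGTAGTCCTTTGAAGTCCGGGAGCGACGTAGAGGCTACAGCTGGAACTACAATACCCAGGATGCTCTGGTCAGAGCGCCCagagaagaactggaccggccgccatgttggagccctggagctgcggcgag

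Of the members on the strand opposite an overlapping gene, Gm15915 (mm10 chromosome 10, 93674218 to 93683322, minus strand, 6 exons) was the highest, at 85.9 TPM in replicate 1 and 119 in replicate 2. It lies inside Ntn4, a netrin gene, which stood at 5.77 and 7.01 TPM, and the exons of the pair share no base. 1700006J14Rik, at 27.3 TPM in replicate 1 and 49.2 in replicate 2, overlaps Hmga2, a gene of a chromatin protein, at 0.26 and 0.25 TPM. In both pairs the lncRNA was many times its neighbour. 4933439C10Rik, at 12.8 and 26.5 TPM, overlaps Zkscan17 at 10.3 and 10.8 TPM. 4930581F22Rik, at 9.88 and 24.0 TPM, overlaps St3gal4, a sialyltransferase gene, at 16.7 and 22.9 TPM. In this pair the lncRNA was lower in replicate 1 and slightly higher in replicate 2. 1810032O08Rik overlaps St6galnac2, listed at 0 in replicate 1 and at 0.02 TPM in replicate 2. The other 7 members of this position were Gm11837, 4930520O04Rik, 9130221H12Rik, Gm16973, E130307A14Rik, 6330418K02Rik and 9330151L19Rik, with mean levels of 6.90 to 11.8 TPM. Over the 12 members, 7 stood above their neighbour in both libraries and 3 below it in both.

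Members on the same strand as an overlapping gene are those whose reads are hardest to assign. Gm12940 stood at 27.6 TPM in replicate 1 and 84.9 in replicate 2. It overlaps the 3′ part of Sfpq, at 224 and 201 TPM, with 216 shared exon bases, and runs past it to overlap Zmym1 on the opposite strand, with 1709 shared exon bases. 1300002E11Rik (mm10 chromosome 16, 21794318 to 21809040, plus strand) stood at 36.3 and 51.1 TPM and starts 28 bases from Map3k13, a kinase gene, at 0.19 and 0.51 TPM. Gm17066 stood at 9.62 and 10.6 TPM, inside Rbm26, an RNA-binding protein gene, at 37.8 and 50.7 TPM. Gm20427, at 5.06 and 11.9 TPM, shares 3503 of its 3711 exon bases with protein-coding genes, Slc39a7 among them, a zinc transporter gene at 7.93 and 10.8 TPM. 1700097N02Rik, at 5.26 and 6.44 TPM, lies beside the start of Glo1, a glyoxalase gene, at 58.7 and 70.5 TPM. Across all members, 8 shared same-strand exon bases with a protein-coding gene, 20 shared opposite-strand exon bases, and 19 held a stretch of at least 100 bases at 95% identity or more in the transcript of another gene.

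The posterior standard deviation of the count was 0 in both libraries for 39 members, and above 0 for Gm10076, Gm12940, 1810026B05Rik, 2900097C17Rik, Gm17066, Gm7292 and Gm20427. The largest of these was 44.4 counts, for Gm20427 in replicate 2, beside 1621 expected counts. In every one of these 7 members the posterior standard deviation was far below the expected count. A value of 0 does not mean that no sequence is shared. Gm42743, 1300002E11Rik, 6330562C20Rik and 1700097N02Rik had 0 but share 226, 227, 94 and 90 same-strand exon bases with a protein-coding gene in M21. The count of Gm42743 includes Hist2h2bb-201, so its 0 does not describe the split between those transcripts.

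Of the 17 intergenic members, the 7 convergent and 4 same-strand downstream ones all stood above their neighbour in both libraries. Only 1 of the 7 convergent and 1 of the 4 downstream neighbours passed the thresholds that every member had to pass. The order is therefore in part set by the rule and not a trait of these positions. 1110038B12Rik lies 3965 bases downstream of Hspa1b, a heat-shock chaperone gene at 5.63 TPM in replicate 1 and 13.4 in replicate 2. 2410006H16Rik converges on Lrrc75a, 77 bases away, at 1.31 and 0.98 TPM. 1700020I14Rik converges on Oip5, a centromere gene, at 10.8 and 12.2 TPM. The remaining ones of these positions were Gm10076, 1810058I24Rik, 2900097C17Rik, 4833417C18Rik and 2900076A07Rik, convergent, and Gm28875, Gm26853 and 4933404O12Rik, downstream. Both divergent members stood below their neighbour: 2700038G22Rik beside Tomm7, a subunit of the mitochondrial import channel, at 50.3 and 46.3 TPM, and Gm12840, at 9.17 and 14.8 TPM, beside Dmap1 at 11.7 and 19.6 TPM. Gm12840 also matched Gm20186, a lincRNA gene on chromosome 6, over 628 aligned bases at 97.5% identity. Whether reads were exchanged between Gm12840 and Gm20186 was not tested. Of the 4 upstream members, 2010204K13Rik and 1700001L05Rik, at 13.9 and 11.9 TPM, stood above Usp27x and Arfgap3. 5430416N02Rik, at 10.29 and 12.01 TPM, stood below Sec31a, a coat protein gene of secretory vesicles, at 52.0 and 56.8 TPM, and Gm7292 below Zfp637 at 17.4 and 32.1 TPM.

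The promoters of members were rich in CpG dinucleotides. RefSeq held a promoter of 300 bases (250 before to 50 after the start) within 1000 bases of a member transcript start for 32 members. Of these, 20 (62.5%) were CpG-rich, that is, with GC of at least 50% and observed over expected CpG of at least 0.6, against 25.9% of 1555 class genes that did not pass, 48.4% of 16179 protein-coding genes, and 78.6% of the 5763 protein-coding genes past the thresholds. The motif of GATA factors, searched as GATA with A or T before it and A or G after it, on both strands, occurred in 4 member promoters (12.5%): 1110038B12Rik, 1700006J14Rik, 1700020I14Rik and 2010204K13Rik. It occurred in 29.4% of class promoters that did not pass and in 17.2% of protein-coding promoters past the thresholds.

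The other motifs were searched on both strands in the same windows. CCNCACCC, the letters of Krüppel-like factor sites, occurred in 8 member promoters (25%), against 16.7% and 18.4% in those same sets. CCGGAAGT, the letters of ETS factor sites, occurred in 3 (9.38%), against 3.09% and 11.7%. TATAAA occurred in 2 (6.25%), against 11.1% and 5.76%. CGCATGCG, the letters of NRF1 sites, occurred in 0 of 32, against 1.41% and 5.10%. A match in these windows is a description of letters and not of binding.

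**Figure D4:**
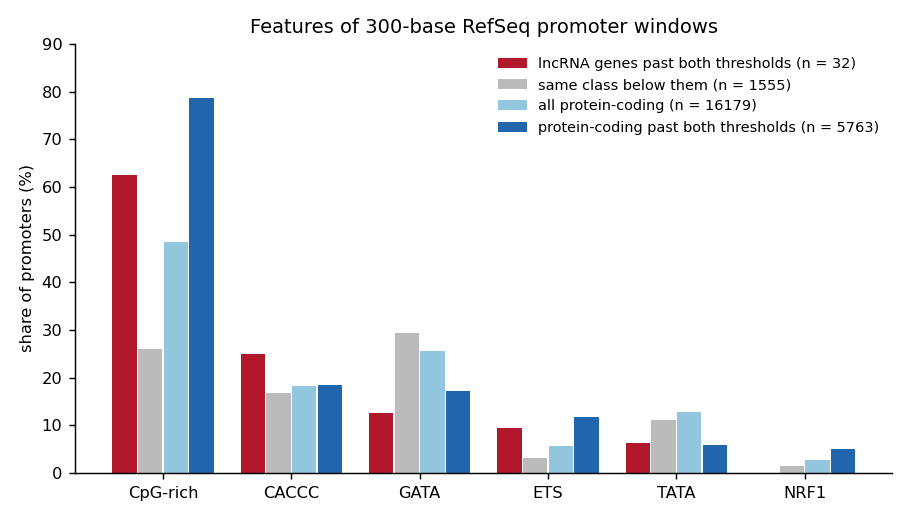
Share of 300-base RefSeq promoter windows, in percent, that were CpG-rich or held the letters of each motif, for members (red), class genes that did not pass (grey), all protein-coding genes (light blue) and protein-coding genes past the thresholds (dark blue). For CpG-rich windows the member bar, at 62.5%, lies between the bars of the class genes that did not pass, at 25.9%, and of protein-coding genes past the thresholds, at 78.6%.

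Members had longer and more varied annotated transcripts than the rest of the class. The median of the largest exon number was 4 in members and 3 in class genes that did not pass, and the median of the longest spliced length 2096 and 1015 bases. Several transcripts were annotated for 80.4% of members, against 31.7%. There were 42 members with more than 1 exon (91.3%), against 95.6%. The 4 single-exon members were Gm10076, 2900097C17Rik, Gm7292 and Gm28875. Of the 35 members with several transcripts in the tables, 27 had the same highest transcript in both libraries (77.1%), a description over genes that share both libraries. For 1300002E11Rik this was 1300002E11Rik-203, a transcript of 3 exons, with 91.96% of the gene's TPM in replicate 1 and 85.7% in replicate 2. For 1110038B12Rik it changed between 1110038B12Rik-207 and 1110038B12Rik-201, the first at 27.9% and 27.6%.

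Levels in both libraries went together, with a Spearman rho of 0.829 over the 46 members, which share the libraries. The log2 difference of TPM + 1, replicate 1 minus replicate 2, was -0.27 at the median over members with a spread of 0.56 (SD), beside -0.19 and 0.40 over the 7467 genes past the thresholds. By TPM, 35 members (76.1%) were higher in replicate 2, against 71.2% of those genes.

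Only 2010204K13Rik (mm10 chromosome X, 7411817 to 7445143, minus strand) was at least 2-fold higher in replicate 1, with 21.7 TPM in replicate 1 and 7.96 in replicate 2. The ratio was 2.72, with an exact interval at 95% from 2.16 to 3.44 that covers counting error only. It was 2.17% of members, beside 0.683% of all genes past the thresholds. At least 2-fold higher in replicate 2 were 6 members (13%), beside 3.40%. Gm12940 had the largest ratio of replicate 2 over replicate 1, 3.08 (2.68 to 3.55). 4930581F22Rik followed at 2.43 (2.06 to 2.88). A930005H10Rik stood at 2.23 (1.86 to 2.68), 4933439C10Rik at 2.08 (1.77 to 2.46) and 1110038B12Rik at 2.04 (1.95 to 2.14). For Gm20427 the counts were partly shared with overlapping genes, and its levels were 5.06 TPM in replicate 1 and 11.9 in replicate 2.

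These calls depended on scale. With edgeR's TMM factors applied to CPM (counts scaled to the library total), the median log2 difference over all 7467 genes was -0.01 and over members -0.20. The members at least 2-fold apart were then 3 higher in replicate 1 (2010204K13Rik, 5430416N02Rik and Gm26853) and 2 higher in replicate 2 (Gm12940 and Gm20427). Over all 7467 genes on this scale, 0.87% were at least 2-fold higher in replicate 1 and 1.15% in replicate 2. 5430416N02Rik changed direction between scales: it had 10.1 CPM in replicate 1 and 4.47 in replicate 2, but 10.29 and 12.01 TPM. Its longer transcript, 5430416N02Rik-201, held 205.91 counts in replicate 1 and 50.57 in replicate 2. The shorter 5430416N02Rik-202 held 77.09 and 196.43 counts, and TPM corrects for length whereas CPM does not. The direction held on every scale tried for 2010204K13Rik, at 7.86 CPM in replicate 1 and 2.08 in replicate 2, and for Gm12940, at 8.81 and 19.9. Members also differed towards replicate 1 without reaching 2-fold in TPM: Gm26853 had a log2 difference of 0.76, 2900097C17Rik 0.65, Gm42743 0.36, Gm10076 0.33, and 1810058I24Rik and Gm7292 0.23 each. With 2 libraries of 1 group, no difference between replicates was tested.

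**Figure D5:**
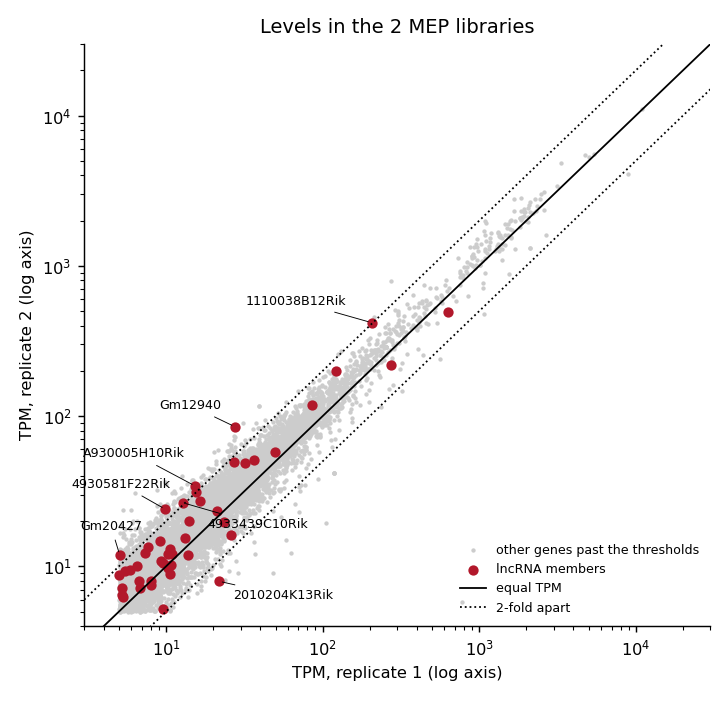
TPM in replicate 2 against TPM in replicate 1, on log axes, for members (red) and the other genes past the thresholds (grey), with lines for equal TPM and for a 2-fold difference. The 7 named members lie beyond the 2-fold lines, 6 of them on the side of replicate 2.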

How the data were processed

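Per the README deposited beside the tables, genes and transcripts were quantified by the authors on mm10 with GENCODE M4. No source used here gives the aligner, the quantifier or the strand setting, and the columns carry the names of RSEM output. The authors' expected counts are estimated reads per gene or transcript, and the deposited TPM values are scaled by effective length over all features. The deposited percent column is a transcript's share of its gene's TPM. The deposited score column is the posterior standard deviation of the count. The deposited signal columns hold the credibility bounds of TPM and were used only for the alternative membership rule. The deposited FPKM values were not used.

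Gene identifiers without version were matched to GENCODE M21 (GRCm38, the same assembly as mm10). Members, gene lists and the rule for named genes were chosen with earlier results of these data known. Named were the 12 highest members, the 5 highest of each position, the 6 largest differences each way, all small RNA hosts, head-to-head members above their neighbour, genes at the thresholds and genes with near-identical sequence. The nearest protein-coding gene was an overlapping gene where there was one, otherwise the one with the smallest gap. Differences between libraries used log2(TPM + 1), which understates the change of low genes. Intervals of ratios, by the exact Clopper-Pearson method at 95% on rounded counts, cover counting error only. No test between groups was possible with 1 group. Scaling factors came from edgeR 4.0.16 and DESeq2 1.42.0 on rounded expected counts, in R 4.3.3. Likeness came from blastn 2.17.0 (word size 28), and the remaining steps from Python 3.11.15, pandas 2.3.3, scipy 1.17.1 and Biopython 1.88. The steps for position and for 2-fold calls were tested on simulated data. Of the 175 member transcripts, 162 had the same length in the tables and in M21.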

Additional observations from a re-analysis of the deposited data

How the results depend on the processing

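Membership depended most on the level minimum. A TPM minimum of 1 gave 133 members, none gave 148, and 10 gave 24, against 46. Rescaling TPM over protein-coding nuclear genes gave 96, and leaving out genes with near-identical sequence in another gene, overlapping genes included, gave 27. Each library alone gave 54 to 74 members. The median member level was 11.9 TPM and became 27.5 with rescaled TPM and 4.26 with a minimum of 1 TPM, and 10.7 to 12.6 in each library alone. The median log2 difference of -0.27 became -0.11 with rescaled TPM. With TMM or DESeq2 factors 10 of 46 members changed the sign of their difference, with 27 higher in replicate 2 against 35, and none of the 7 members at least 2-fold apart by TPM reversed. Counts of head-to-head pairs, of neighbours past the thresholds (25 to 27 in each library alone), of members at least 2-fold apart, of multi-exon members and of promoters with a GATA motif stayed within 1.5 times under the alternatives run. The longer promoter window was not run, since it needs a genome sequence. Settings that leave out shared-count members, RefSeq protein-coding or pseudogene entries, or the Hist2h2bb transcript were chosen after seeing the data. No paired analysis was possible because the series holds 1 group.

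With 100 cells per library and 2 libraries, members near 5 TPM rest on as few as 55 counts, and class genes below the thresholds were not shown to be absent.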

Other observations

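When the nearest protein-coding gene was chosen by distance between starts rather than by gene body, 13 members (28.3%) were head-to-head, against 17.3% of the class genes that did not pass. The added pairs were E130307A14Rik with Rev3l, whose starts lie 111 bases apart, 6330418K02Rik with BC037034, 10 bases apart, and 9330151L19Rik with Gm49383, 107 bases apart. Rev3l encodes the catalytic subunit of a translesion DNA polymerase. By the start of the most abundant transcript, 8 members were head-to-head, since 1600020E01Rik and 5530601H04Rik then started 1080 and 9710 bases from their neighbours.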
